A study of Mus musculus with 3 samples.

Results

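The respiratory chain genes of mouse cells from the medial vestibular nucleus (MVN) are described here, in 3 single-cell libraries that followed the loss of 1 inner ear. The members were picked by gene symbol, with no measured value: symbols beginning with Nduf, Uqcr, Cox4 to Cox8, Atp5 or mt-, together with Sdha, Sdhb, Sdhc and Sdhd, leaving out 8 symbols that contained -ps. The rule found 119 of the 28676 genes in the count table. Of these, 91 lie in the nuclear genome and 28 in the mitochondrial genome. The nuclear set held 36 genes of complex I, 8 complex I assembly factors, 4 genes of complex II, 8 of complex III, 19 of complex IV (Ndufa4 and Ndufa4l2, named after complex I, were placed there) and 16 of ATP synthase. The mt- set held 13 protein-coding genes, 2 ribosomal RNAs and 13 transfer RNAs.

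C57BL/6 mice (C57BL/6J in the methods of the study) were operated on at postnatal day 20, and the MVN was taken 1 day later. The ULI and ULC libraries came from the ipsilateral and the contralateral side of mice with unilateral labyrinthectomy (UL), the surgical destruction of 1 labyrinth. The study names 11 UL mice in all, so the 2 libraries hold the opposite sides of 1 pool of animals. The control library (columns VN) pooled 10 mice whose tympanic bulla had been opened without UL, although the treatment label names labyrinthectomy for all 3 libraries. With 1 pooled library per group there was no replicate, so no test was made. A difference between libraries cannot be told apart from a difference between groups. Shares are given with exact binomial 95% intervals (Clopper-Pearson), and those of ratios come from the same counts. Both cover counting error only, and the unique molecular identifiers (UMIs, each tagging 1 captured RNA molecule) of 1 cell share their source.

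Oxidative phosphorylation couples electron transfer along complexes I to IV in the inner mitochondrial membrane to ATP synthesis by complex V, ATP synthase. Complex I takes electrons from NADH, complex II from succinate, complex III passes them to cytochrome c and complex IV hands them to oxygen. Complex II is encoded wholly by nuclear genes, whereas the other complexes join nuclear subunits to a core made from mitochondrial DNA. Astrocytes and oligodendrocytes are known for active glycolysis, and neurons and secretory or ciliated epithelia for a high demand for mitochondrial ATP.

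The libraries differed in depth. The control, ULI and ULC libraries held 27019650, 17428194 and 12768983 UMIs, and 4607, 4813 and 4544 cells with at least 200 detected genes were kept, with medians of 3177, 2100 and 931 UMIs per cell. The cell names were serial numbers, so barcodes shared between libraries could not be counted. Clustering without the member genes gave 27 clusters, from which 14 classes were named by markers. Of these, 8 classes had at least 50 cells in every library and were compared. Every marker of its own list was detected in each of the 8 classes in each library, except that Cnn1 was at 0 in control vascular smooth muscle cells. That class also carried all 6 pericyte markers, at a summed level of 52450, 27840 and 22300 UMIs per 1000000 UMIs of the class in a library (CPM) in the control, ULI and ULC libraries, against 10130, 10800 and 12480 CPM for its own list. In 3 classes different clusters held most cells of each library. Mature oligodendrocytes lay in clusters 3 and 1 in control, 1, 17 and 3 in ULI, and 10 and 13 in ULC. Microglia lay in clusters 0, 5 and 8 in control, 8 and 5 in ULI, and 15 in ULC. Most precursors lay in cluster 7 in control and ULI and in cluster 22 in ULC.

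Several mt- genes have near-perfect copies in the nuclear genome, so their sequences are compared here. The opening 60 bases of mt-Co3 and mt-Co2, which encode complex IV core subunits, are shown beside the nuclear copies annotated as Gm28437 and Gm28661, and a stretch of mt-Nd4, a complex I core subunit, is shown at the end of its copy. The sequences come from the GRCm38 reference, 5′ to 3′ on the strand of the gene. The capitals in mt-Nd4 mark the last 30 bases that it shares with Gm28439.
mt-Co3, chrM:8607-8666, plus strand: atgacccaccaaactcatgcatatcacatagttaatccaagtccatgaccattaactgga
Gm28437, chr1:24613912-24613971, minus strand: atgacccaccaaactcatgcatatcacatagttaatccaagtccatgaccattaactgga
mt-Co2, chrM:7013-7072, plus strand: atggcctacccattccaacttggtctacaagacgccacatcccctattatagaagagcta
Gm28661, chr1:24615506-24615565, minus strand: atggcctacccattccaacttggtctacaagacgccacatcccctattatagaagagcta
mt-Nd4, chrM:11013-11072, plus strand: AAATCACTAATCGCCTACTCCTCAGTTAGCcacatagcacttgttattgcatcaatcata
The mt-Co3 and Gm28437 sequences did not differ at any of 783 bases compared, nor did mt-Co2 and Gm28661 over 681. In mt-Nd4, the first 876 bases were shared and the last 502 were not.

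Most mt- genes whose 50-base words nearly all occur in another gene had few UMIs. Over all barcodes, mt-Co2 (100% of words shared) had 735 UMIs per kilobase of gene, mt-Atp6 (99.5%) 330, mt-Nd4l (98.8%) 23.6 and mt-Co3 (99.9%) 19.1. Both mt-Atp6 and mt-Atp8 encode ATP synthase subunits. mt-Nd3 (98.0%) had 18322 UMIs per kilobase. mt-Atp8 had 1 UMI, and none of its words was shared with another annotated gene. Words were looked up in annotated transcripts only. mt-Atp8 lies between mt-Co2 and mt-Co3, whose copies both lie on the minus strand of chromosome 1. A copy of mt-Atp8 between them was not looked for. The genes with a long unshared stretch stood far higher. mt-Cytb, the only complex III subunit made in the mitochondrion, had 1179243 UMIs per kilobase, mt-Nd2 667446, mt-Nd1 663630, mt-Nd4 570803, mt-Nd6 536757, mt-Co1 258415 and mt-Nd5 154341. The low counts of mt-Co2, mt-Atp6, mt-Co3, mt-Nd4l and mt-Atp8 are not read here as levels of these RNAs. The part of shared sequence in these counts was not tested. Whether the counting used strand was not given in the sources used here. mt-Nd6 lies on the minus strand and overlaps the end of mt-Nd5, so their reads in that overlap may not be separable. The 13 transfer RNAs had between 5 and 1016 UMIs, most for mt-Tp.

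**Figure D1:**
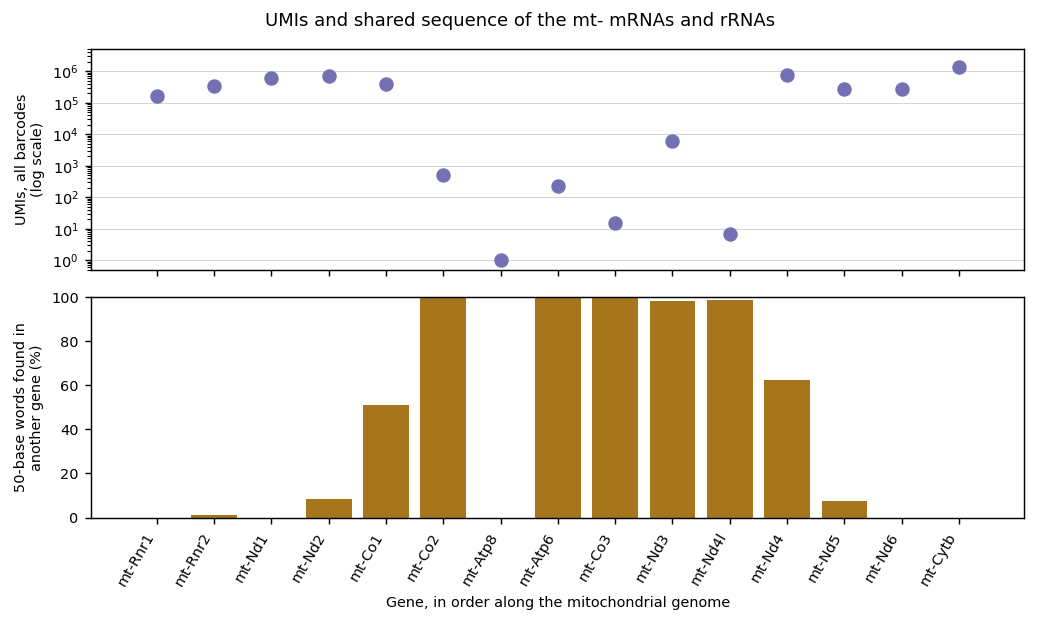
The upper plot gives the UMIs of each mt- mRNA and rRNA over all barcodes (log axis), in genome order, and the lower plot the percentage of its 50-base words that another gene holds. The 4 genes with 7 to 503 UMIs and over 98% shared words are mt-Co2, mt-Atp6, mt-Co3 and mt-Nd4l. mt-Atp8 had 1 UMI with no word shared with another annotated gene, and copies outside annotated genes were not looked for.

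Among nuclear members, 48 of 91 shared no 50-base word with another gene. Another 4 shared over 50% of their words (Atp5l 83.4%, Ndufs3 53.9%, Atp5h 53.1% and Uqcrc2 52.2%), so counts of these 4 are less certain. Atp5o (47.5%), Atp5g2 (47.3%), Uqcrb (46.8%), Atp5g1 (45.9%) and Cox5a (42.4%) lay below this limit. The same caution applies to their counts. In all, 87 of the 91 had at least 100 UMIs over all barcodes. The other 4, Cox4i2, Cox6a2, Cox8b and Cox7b2, had 85, 78, 77 and 9.

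The classes differed in both sets. The nuclear members took the largest share of UMIs in choroid plexus epithelium, which secretes cerebrospinal fluid, with a mean over libraries of 2.81% (2.99% in ULI and 2.63% in ULC). Neurons had 2.49% (2.20% and 2.79%), so the order of these 2 classes differed between libraries. The neurons included cluster 26, with 35 cells, all from ULI. It was led by Calb1, Car8 and Ppp1r17, with no listed neuron marker among its 10 leading genes. The other ULI neurons (cluster 21, 77 cells) had 1.75%. Neuron levels given here include both clusters. Ependymal cells, the ciliated lining of the ventricles, followed with 1.62% (1.40 to 1.8% over 3 libraries) and vascular smooth muscle cells with 1.41% (1.30 to 1.55%). Microglia, the resident immune cells of the brain, had the smallest share, 0.626% (0.546 to 0.687%), below perivascular macrophages with 0.844% (0.726 to 0.965%). Between these ends, astrocytes (1.04 to 1.36%), endothelial cells (1.02 to 1.25%), precursors (0.978 to 1.21%) and mature oligodendrocytes (0.908 to 0.982%) overlapped their neighbours. Gene by gene, the high end held, and microglia were most often lowest. Of the 91 nuclear members, 40 had their highest CPM in choroid plexus epithelium and 31 in neurons, while 44 had their lowest in microglia and 26 in pericytes. Pericytes were not at the low end of the summed share (1.31%). Their levels come from 1 library, ULI, with 116 cells and 215638 UMIs, where members such as Ndufa9 and Uqcrc1 were at 0.

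The mt- share ran in another order. Astrocytes were highest with a mean of 22.3% (17.8 to 26.4%), followed by choroid plexus epithelium with 19.2% and neurons with 11.3%. Oligodendrocyte precursors (3.94%) and newly formed oligodendrocytes (3.82%) were lowest and their libraries overlapped. Per nuclear UMI, astrocytes held 19.1 mt- UMIs (13.1 to 25.3 over libraries), whereas the other classes lay between 3.28 in newly formed oligodendrocytes and 8.25 in mature oligodendrocytes. The lowest astrocyte library was above every library of the other classes.

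**Figure D2:**
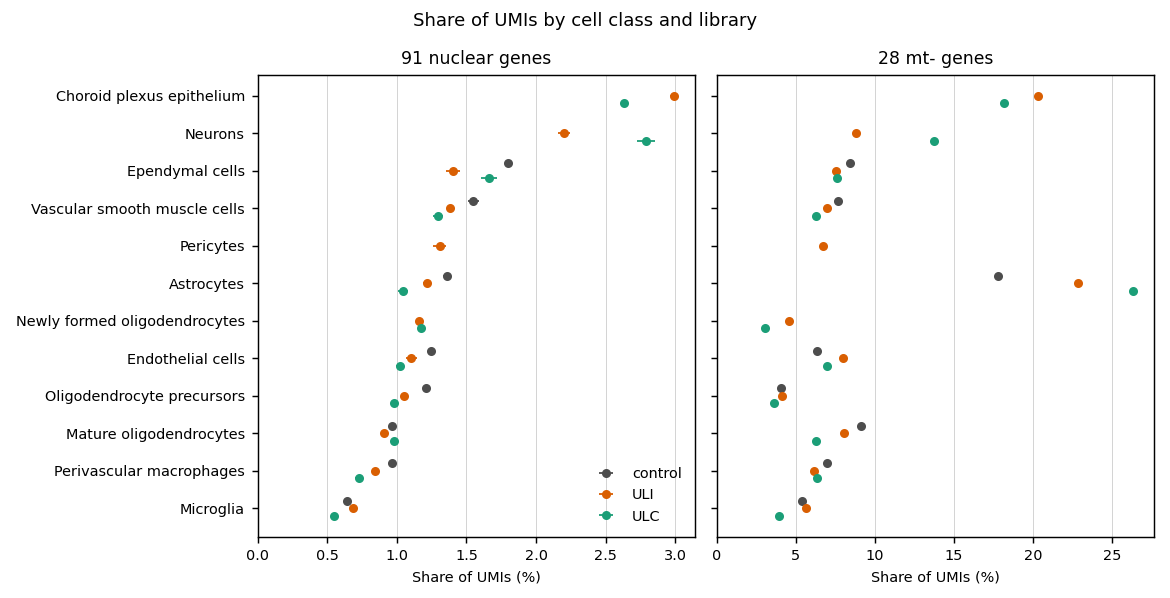
Share of UMIs (%) of the 91 nuclear genes (left) and the 28 mt- genes (right) by cell class, with 1 point per library of at least 50 cells and its exact 95% interval. The nuclear share runs from 0.546% to 2.99%, and astrocytes have the highest mt- shares, 17.8% to 26.4%.

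Most of the difference between classes was shared by many genes, but a few members were restricted to 1 or 2 classes. Ndufa4l2, a paralogue of the complex IV subunit Ndufa4 known as a target of hypoxia signalling, made up 252 of the 425 Ndufa4 and Ndufa4l2 UMIs in vascular smooth muscle cells (59.3%, 54.5 to 64.0%) and 65 of 73 in pericytes (89.0%, 79.5 to 95.2%). No UMI was found in mature or newly formed oligodendrocytes, microglia, astrocytes, perivascular macrophages or neurons, and 1 to 5 UMIs were found in each of choroid plexus epithelium, precursors, endothelial and ependymal cells. Within smooth muscle cells the libraries differed widely. Control held 14 Ndufa4l2 UMIs in 5 of 111 cells (42.2 CPM), ULI 12 in 7 of 297 cells (16.8 CPM) and ULC 226 in 76 of 144 cells (634 CPM). The ULC library was far above the others, and the isoform's share was 29.2%, 9.92% and 88.3%, respectively. Pericytes had 1, 3 and 61 UMIs, with 38, 116 and 49 cells. The ULC class also had a summed level of the hypoxia response list that was higher by 1.03 on the log2 scale, and a lower summed level of pericyte markers than control, as given above. Their part in the Ndufa4l2 levels was not tested.

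Other isoforms also had unequal shares. Cox4i2, the alternative form of the complex IV subunit Cox4, made up 9.33%, 18.3% and 8.52% of the Cox4i1 and Cox4i2 UMIs of vascular smooth muscle cells in control, ULI and ULC, and 10.2% (7.72 to 13.2%) with the libraries summed. Pericytes had 7 of 17 UMIs, 3 of 27 and 9 of 93, a summed share of 13.9%, which was 22.7% without ULC. Endothelial cells had 0 of 419, with an exact upper limit of 0.877%, or 2.20% without ULC. The ULC library, with its high Cox4i1 level, gave most UMIs of these sums. Cox7a1, the heart and muscle form of Cox7a, was found mostly in the epithelia that line the ventricles. In choroid plexus epithelium it took 38 of 328 UMIs of its set in control (11.6%), 1.93% in ULI and 3.89% in ULC. Ependymal cells had 105 UMIs in the control library (98.6 CPM, 80.7 to 119), 16.4% of the set. They had 0 Cox7a1 UMIs in ULI and in ULC, where 3 counts would be 15.1 and 15.2 CPM. Cox6b2, known from testis, took 7.91%, 5.73% and 17.5% of the Cox6b UMIs of choroid plexus epithelium in control, ULI and ULC. Ependymal cells had 8.84%, 0 of 35 UMIs and 15.2%. Summed, the shares were 13.9% and 9.25%, but without ULC 6.63% (5.06 to 8.50%) and 8.30% (6.19 to 10.9%), so the order of the 2 classes rested on ULC. No other class was above 3.41% in the sum of 3 libraries. Cox8b reached 1.03% of its set in choroid plexus epithelium, and Cox6a2 2.20% in microglia. The last are small shares, given only to show where the UMIs lie.

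**Figure D3:**
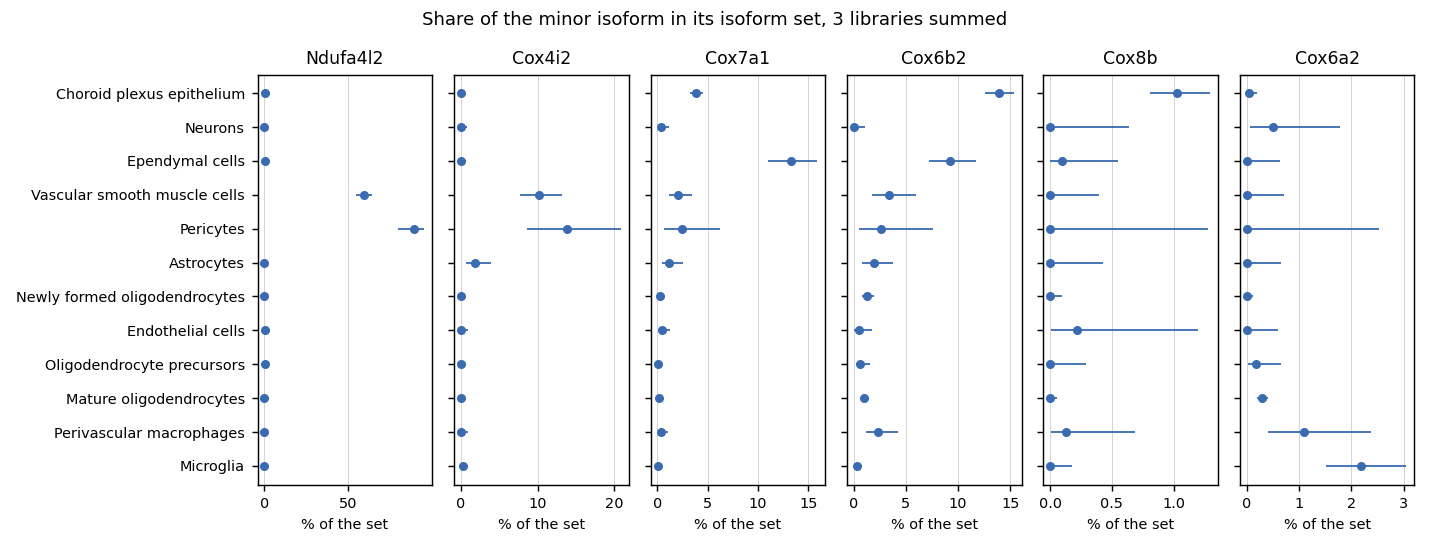
Share (%) of each minor isoform in the UMIs of its isoform set by class, the 3 libraries summed, with exact 95% intervals. Ndufa4l2 reaches 59.3% in vascular smooth muscle cells and 89.0% in pericytes, while the Cox6b2 shares of 13.9% in choroid plexus epithelium and 9.25% in ependymal cells change order without the ULC library.

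The nuclear members most unequal between classes were otherwise small subunits. Ndufa1, an accessory subunit needed for assembly of the complex I membrane arm, had 1494 CPM in choroid plexus epithelium against a median of 223 CPM over classes. Atp5g1, which encodes the c-ring of ATP synthase, had 357 CPM there against 81.7. Uqcr10 and Uqcr11, small subunits of complex III, had 120 and 84.5 CPM there against 28.02 and 21.0. The complex I subunits Ndufa11 (33.5 CPM) and Ndufs8 (39.4 CPM) were highest in neurons, against medians of 7.24 and 9.13, and Ndufs5 in choroid plexus epithelium (17.9 CPM against 3.42). These genes were thus highest in the 2 classes with the largest nuclear share. The assembly factors had other classes. Ndufaf3 was highest in ependymal cells (104 CPM against 18.9), and Ndufaf2 in newly formed (121 CPM) and mature oligodendrocytes (110 CPM), against a median of 30.1.

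Short words were present in the promoters of some members, more often than over all genes. NRF1 is a transcription factor known to act on many respiratory genes, and ETS-family factors such as GABPA on others. The letters GCGCATGC (the NRF1 word) or their reverse complement were present between 250 bases before and 50 after the start in 12 of 76 nuclear members with a RefSeq promoter (GRCm38.p6), 15.8%, against 4.61% of 15289 genes. CCGGAAG (the ETS word) was present on either strand in 18 members, 23.7%, against 14.9% of genes, and either word in 25 members, 32.9% against 18.5%. Neither word contains the other. A match describes the letters only. Windows of 30 bases are shown, with the word in capitals as it reads on the strand of the gene, for 2 members whose levels went opposite ways in ULC and 2 of complexes IV and I.
Sdhb, chr4:140961206-140961235, plus strand: aagcccagtggGCATGCGCcctacgggccg
Atp5k, chr5:108434431-108434460, minus strand: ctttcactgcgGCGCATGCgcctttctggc
Cox6a1, chr5:115349102-115349131, minus strand: acaggaacgggGCGCATGCgcgctctcgct
Ndufa6, chr15:82354356-82354385, minus strand: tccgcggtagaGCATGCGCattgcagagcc

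After UL, the share of the nuclear set within classes was lower than in control in 7 of 8 classes on either side. Both comparisons share the control library. In ULI the differences were small: the median log2 ratio was -0.17, from -0.36 in ependymal cells to 0.09 in microglia, where the share stood at 0.644% (0.638 to 0.651%) for the control library and at 0.687% (0.677 to 0.699%) for ULI. In ULC the median was -0.27, from -0.41 in perivascular macrophages to 0.03 in mature oligodendrocytes. The last value lay near 0 and turned negative under most alternatives of processing. Within shared clusters the sign varied. In mature oligodendrocytes, ULC had 0.926% against 0.775% in control in cluster 1, but 0.943% against 1.11% in cluster 13. ULI had 0.776% in cluster 1, and 0.889% against 0.971% in cluster 3. ULI microglia were lower in cluster 0 (0.604% against 0.627%) and higher in clusters 5 and 8. The part of the cluster make-up was not tested. In perivascular macrophages the share was 0.965%, 0.841% and 0.726% in control, ULI and ULC, and in astrocytes 1.36%, 1.22% and 1.04%, with intervals that did not overlap. This order differed with depth. At 500 to 1000 UMIs control was lowest, with 0.727%, 0.879% and 0.823% in macrophages and 0.953%, 1.17% and 1.13% in astrocytes. In both classes the order was kept at 1000 to 2000 UMIs (astrocytes 1.01%, 0.954% and 0.934%) and at 2000 to 4000 UMIs. Depth and library were not separated here. Over all cells without regard to class the sign was opposite to that of most classes, with log2 ratios of 0.24 in ULI and 0.55 in ULC. The ULC library held 1100 choroid plexus cells, the class with the largest nuclear share, and control 27. Between the sides, the share was higher in ULI than in ULC in 6 classes and lower in mature oligodendrocytes and ependymal cells.

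The mt- share did not follow the nuclear share. In ULI it was higher than in control in astrocytes (log2 ratio 0.36), endothelial cells (0.34), microglia (0.06) and precursors (0.02), and lower in 4 classes. In precursors the interval of the ratio was above 0, although those of the shares themselves overlapped (4.06% and 4.12%). The higher share of microglia was not present within clusters that had at least 50 cells in both libraries. ULI had 4.211% against 4.899% in control in cluster 0, 6.711% against 6.821% in cluster 5 and 5.597% against 5.604% in cluster 8. In ULC the mt- share was higher in astrocytes (0.57) and endothelial cells (0.14) and lower in 6 classes. It was lowest against control in mature oligodendrocytes, where 9.13% in control and 8.05% in ULI stood against 6.30% in ULC. Within shared clusters of precursors and mature oligodendrocytes the sign varied. ULC was above control in precursor cluster 7 (6.55% against 4.07%) and in mature oligodendrocyte cluster 1 (21.2% against 18.9%). It was below control in mature oligodendrocyte cluster 13 (6.85% against 7.96%). The part of the cluster make-up in the class ratios was not tested. The ribosomal RNAs moved apart from the mRNAs in several classes. Their log2 ratio in endothelial cells was 0.92 in ULI and 0.77 in ULC, against 0.19 and -0.02 for the mRNAs, and in perivascular macrophages it was -0.76 and -0.37, against -0.01 and -0.07.

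Astrocytes had the widest mt- shares, 17.8% (17.7 to 17.9%) in control, against 22.9% (22.8 to 23.0%) ipsilaterally and 26.4% (26.2 to 26.5%) contralaterally. Cells with over 20% mt- UMIs made up 133 of 304 control cells, 216 of 335 ULI cells (64.5%) and 140 of 210 ULC cells (66.7%). The remaining cells had mt- shares of 12.1%, 11.4% and 11.7%, and within them the log2 ratio to control was -0.08 in ULI and -0.05 in ULC. The limit is set on the measure itself, and the higher share of the UL libraries was not present among the cells below it. With cells thinned to 500 UMIs, which left out 1, 5 and 11 shallower cells, it was 0.31 and 0.43. Transcripts of the choroid plexus list took 0.0140%, 0.0671% and 0.723% of astrocyte UMIs in control, ULI and ULC, and the dissociation stress list was higher in astrocytes by 1.18 and 0.94 on the log2 scale. Their part in the mt- share was not tested.

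By complex, the losses were unequal. Complex I, the entry point for NADH, was lower in ULI in 8 of 8 classes (median log2 ratio -0.30, from -0.39 to -0.13), as was complex IV, the terminal oxidase (-0.33, from -0.74 to -0.06). Complex III had an interval above 0 in 3 classes in ULI and below 0 in none. In ULC it was instead complex III, the cytochrome c reductase, that was lower in 8 of 8 classes (median -0.46, from -0.70 to -0.23). Complex I was lower in 7 classes in ULC (median -0.34) and ATP synthase in 6 (median -0.22). Complex IV was lower in 5 classes and higher in 1. Complex II was higher in 4 classes in ULC and lower in none (median 0.18). Directly between the sides, complex III was higher in ULI than in ULC in 7 classes (median 0.57), and complex II lower in 5 (median -0.28).

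**Figure D4:**
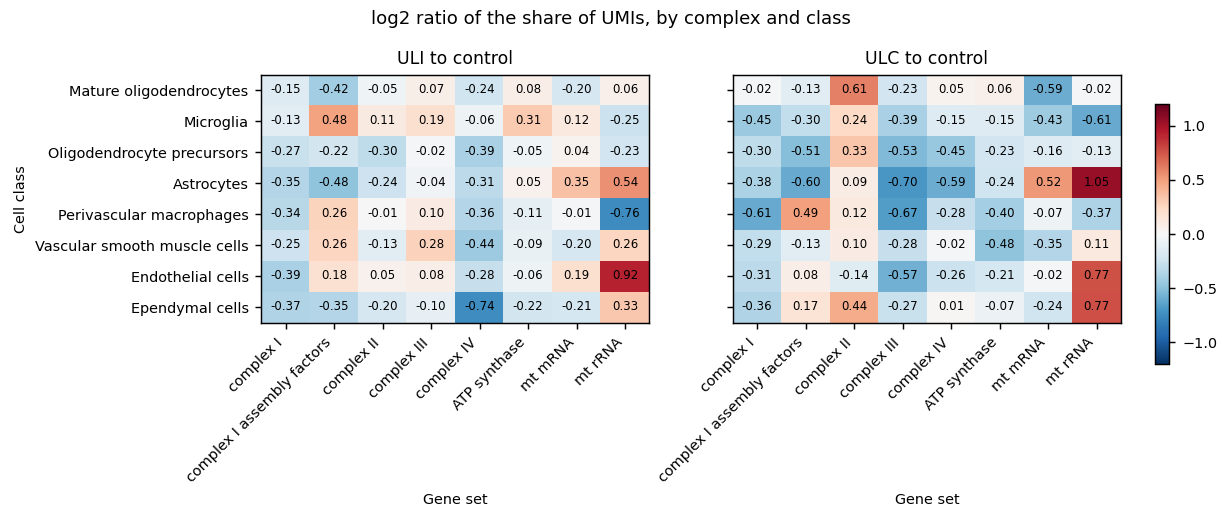
Each cell of the map gives the log2 ratio of a complex's share of UMIs to control, by cell class, for ULI (left) and ULC (right). Complexes I and IV are below 0 in all 8 classes in ULI, and complex III in all 8 classes in ULC.

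Gene by gene, a member was called higher or lower where its CPM differed by at least 1.5-fold, among genes with at least 100 UMIs in both libraries of a class together. In mature oligodendrocytes, the myelinating cells, 7 of 79 nuclear members (8.86%) were higher in ULI and 32 (40.5%) lower, against 16.0% and 22.8% of all genes. In ULC, 16 of 80 (20%) were higher and 13 (16.3%) lower, against 24.5% and 19.8%, close to the background. The median log2 ratio of the members was -0.32 in ULI and -0.24 in ULC, against -0.03 and 0.05 for all genes. In microglia, 11 of 61 (18.0%) were higher and 16 (26.2%) lower in ULI, against 14.5% and 18.1%, and 4 of 61 (6.56%) higher and 28 (45.9%) lower in ULC, against 17.7% and 16.7%. Their medians were -0.01 and -0.49. The share of lower members in microglia was thus nearer to the background in ULI than in ULC.

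Precursors, the proliferating cells of the oligodendrocyte lineage, had 1 of 57 members higher (1.75%) and 16 lower (28.1%) in ULI, against 9.61% and 10.7% of all genes, and 6 of 55 higher (10.9%) and 24 lower (43.6%) in ULC, against 13% and 15.3%. In astrocytes 1 of 50 (2%) was higher and 13 (26.0%) lower in ULI, against 11.7% and 13.8%. In ULC, 4 of 45 astrocyte members (8.89%) were higher and 21 (46.7%) lower, but all genes leaned the same way there, with 9.26% higher and 26.8% lower. Perivascular macrophages had 1 of 42 higher (2.38%) and 10 lower (23.8%) in ULI, against 16.6% and 15.3%, and 3 of 42 higher (7.14%) and 24 lower (57.1%) in ULC, against 15.8% and 21.8%. The ULC share of lower members was above the background in these 3 classes. In the same 5 classes, 9 to 14 mt- members were measured. Of their 56 gene and class pairs in ULI, none was higher and 11 (19.6%) were lower, against 14.0% and 17.4% of the pairs of all genes. Of 54 pairs in ULC, 3 (5.56%) were higher and 15 (27.8%) lower, against 18.5% and 18.8%. The share of lower mt- pairs in ULI was near that of all genes.

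Few members were called in every class. Of 35 nuclear members measured in all 8 classes in ULI, 3 were lower in each (Atp5h, Ndufa7 and Cox6b1) and none was higher, against 1.85% and 0.115% of 866 genes. Of 31 in ULC, 1 was higher in each (Cox4i1) and none was lower, against 1.47% and 0.368% of 544 genes. The 9 mt- genes measured in all classes were not called in every class on either side.

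Among members measured in all 8 classes, the highest ratios in ULC were those of a complex IV gene. Cox4i1, which encodes a nuclear subunit of the complex, had in mature oligodendrocytes control, ULI and ULC levels of 172, 96.7 and 774 CPM. The levels in microglia were 102, 72.6 and 467 CPM, in precursors 108, 64.9 and 578, and in astrocytes 160, 84.0 and 452. ULC was the highest and ULI the lowest library in every class compared. In perivascular macrophages the levels were 116, 78.4 and 622 CPM, in vascular smooth muscle cells 205, 93.9 and 904, in endothelial cells 163, 117 and 648, and in ependymal cells 240, 131 and 1272. The log2 ratio of Cox4i1 to control lay between 1.5 and 2.43 in ULC and between -1.13 and -0.48 in ULI. Other subunits of the complex had other orders. Cox6b1, the subunit that bridges the 2 monomers, had in astrocytes 336, 139 and 162 CPM in that order, with a median log2 ratio over 8 classes of -1.17 in ULI. Like Cox4i1 it was lowest in ULI there, but it was below control in ULC too. Cox6c had 592, 386 and 209 CPM in the same cells and was lower in 7 of 8 classes in ULC. Cox8a, the complex IV gene with the most UMIs, had 293, 292 and 318 CPM in mature oligodendrocytes and its lowest log2 ratio in ULC, -1.10, in vascular smooth muscle cells. These libraries thus differed little for Cox8a in oligodendrocytes. Cox5a, a subunit close to the core, had 13.8, 26.3 and 11.2 CPM in mature oligodendrocytes, the single class in which it was measured. Cox7c, also measured in that class alone, had log2 ratios of -1.38 in ULI and 0.81 in ULC, with the same signs as Cox4i1.

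In complex I, the accessory subunit Ndufa7 had 154, 60.4 and 104 CPM in mature oligodendrocytes in control, ULI and ULC, and 198, 47.7 and 85.4 CPM in perivascular macrophages. Control was highest in both classes and ULI lowest. Its log2 ratio in ULI ran from -2.05 to -1.05. Ndufv3 and Ndufb9, also accessory subunits, were lower in ULI in each class in which they were measured, by log2 ratios of -2.56 to -1.64 in 4 classes and -2.10 to -1.44 in 5. Ndufa13, known also as GRIM-19, ran the other way in ULC: mature oligodendrocytes had 71.4, 28.3 and 191 CPM, and it was higher in 6 of 8 classes with a median log2 ratio of 1.02. Ndufv1, which binds NADH, was measured in mature oligodendrocytes only, with 12.7, 3.59 and 88.2 CPM. Ndufb7 had 16.4, 3.14 and 55.4 CPM there, again lowest in ULI and highest in ULC. Ndufa2 and Ndufa6 had median log2 ratios of -1.11 and -0.84 in ULC. Further low ratios of accessory subunits in ULC were -2.04 for Ndufa3 in astrocytes, -1.49 for Ndufa5 in precursors and -1.35 for Ndufb3 in vascular smooth muscle cells. Ndufa3 was also low in ULI ependymal cells (-2.18). Ndufv2, an iron-sulphur subunit, and Ndufb10 were higher in ULI in 4 and 3 of 8 classes, and Ndufb11 had a log2 ratio of 0.58 in ULI ependymal cells. Of the assembly factors, Ndufaf4 had 23.8, 64.9 and 26.7 CPM in microglia, and Ndufaf7 12.5, 26.3 and 17.7 CPM in mature oligodendrocytes. Members of a single complex thus lay on either side of control in the same library.

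Complex II, also the succinate dehydrogenase of the tricarboxylic acid (TCA) cycle, was split as well. Sdhb, the iron-sulphur subunit whose promoter window is shown above, had 45.7, 30.3 and 174 CPM in mature oligodendrocytes, 29.1, 22.4 and 84.4 in microglia and 61.6, 28.6 and 147 in precursors. The log2 ratio of Sdhb in ULC was 1.93, 1.54 and 1.25 in these 3 classes, the ones in which it was measured. Sdhc, a membrane anchor, had 84.1, 44.0 and 176 CPM in mature oligodendrocytes, and was higher in ULC in 5 of 8 classes. Sdha, the flavoprotein, stood at 157, 207 and 152 CPM there, within 1.5-fold of control on both sides. Sdhd, the other anchor, had log2 ratios in ULC of -0.27 in mature oligodendrocytes, -0.65 in microglia, -1.49 in astrocytes and -1.16 in perivascular macrophages, and the highest of 8 classes was 0.15. In mature oligodendrocytes, Sdhb and Sdhc were thus called higher in ULC and Sdha and Sdhd were not.

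In complex III, Uqcrh, the hinge protein at the cytochrome c site, had 299, 369 and 208 CPM in mature oligodendrocytes in control, ULI and ULC, and 422, 409 and 162 CPM in astrocytes. ULC was the lowest library in both, and the median log2 ratio of Uqcrh in ULC was -0.75. Uqcrc2, a core subunit whose counts are less certain because of shared sequence, had 37.6, 78.6 and 59.5 CPM in microglia and a log2 ratio of 0.56 to 1.16 in ULI over 7 classes. Uqcrb, which binds ubiquinone, had 128, 191 and 56.1 CPM in perivascular macrophages, with ULI highest and ULC lowest.

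In ATP synthase, Atp5h, the stalk subunit d, had in mature oligodendrocytes 124, 49.6 and 173 CPM in control, ULI and ULC, and in precursors 88.3, 37.7 and 140. The ULI library was lowest in each. The log2 ratio of Atp5h in ULI ran from -2.93 to -1.07, although 53.1% of its words occur in other genes, so part of its reads may have been assigned elsewhere. Atp5k, the membrane subunit e, was the lowest in ULC: microglia had 60.3, 60.8 and 16.0 CPM and perivascular macrophages 101, 90.7 and 22.0. Atp5k was lower in ULC in 7 of 8 classes (median log2 ratio -1.45), and the exception was astrocytes (-0.42). Atp5d, the delta subunit of the rotor, had in microglia 52.2, 48.4 and 79.9 CPM, and in precursors 63.7, 42.6 and 138. Atp5a1, the catalytic-head subunit alpha and the gene of the complex with the most UMIs, had 353, 605 and 573 CPM in mature oligodendrocytes, so both UL libraries were above control. Atp5j, coupling factor 6, had 139, 242 and 108 CPM in microglia. Atp5s, coupling factor B, had 24.6, 16.2 and 6.93 CPM in mature oligodendrocytes.

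**Figure D5:**
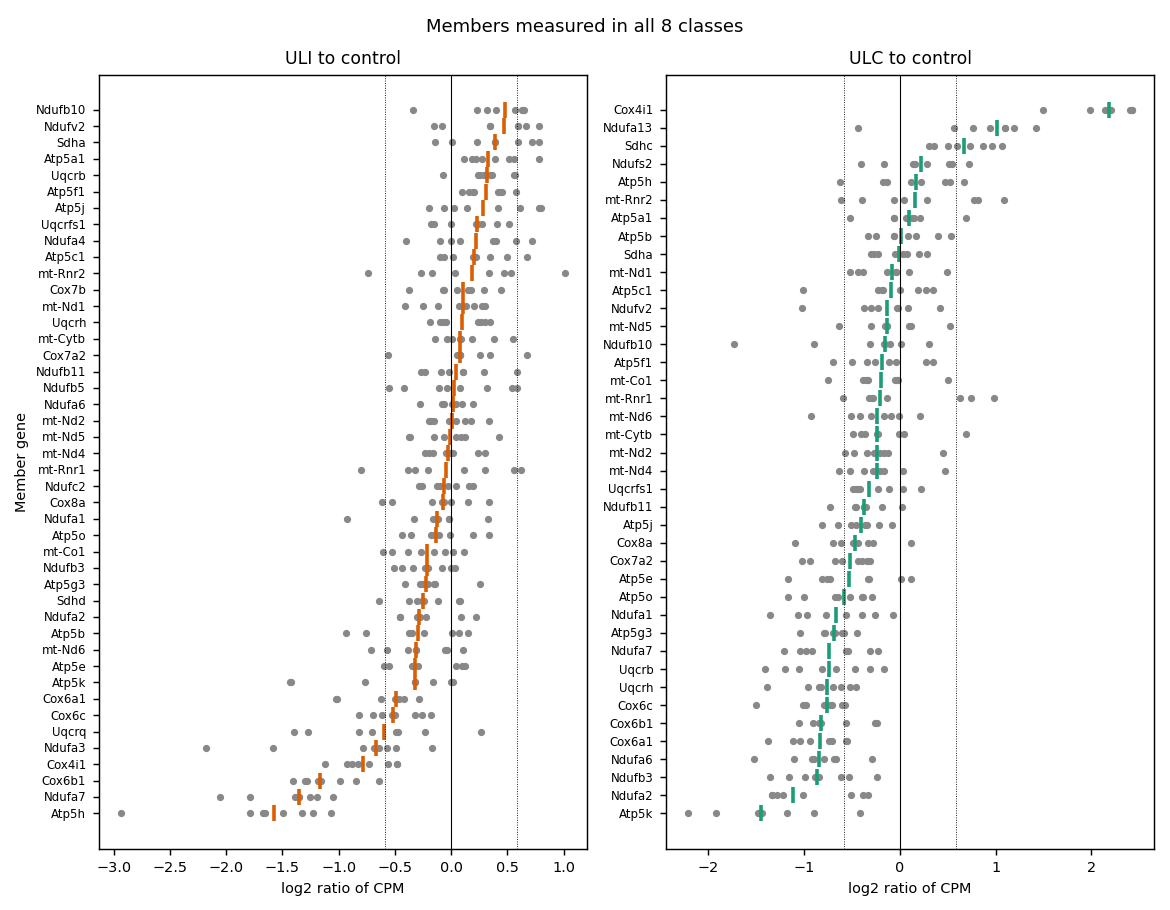
Log2 ratio of CPM to control for each member measured in all 8 classes, with 1 grey point per class, a bar at the median and dotted lines at 1.5-fold. Cox4i1 lies above 1.5-fold in all classes in ULC, and Atp5h, Ndufa7 and Cox6b1 lie below it in all classes in ULI.

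Within the mt- set, mt-Cytb took 17.1% to 34.7% of mt- UMIs over the classes and libraries compared, the largest part in 23 of 24. The exception was control perivascular macrophages, where mt-Rnr2, the large ribosomal RNA, took 20.2%. In endothelial cells mt-Rnr2 had 7817, 15760 and 13390 CPM in the control, ULI and ULC libraries. The small ribosomal RNA mt-Rnr1 had 5625, 8282 and 11150 CPM in astrocytes. Both were thus above control in the UL libraries of these classes. The transfer RNA genes mt-Ta and mt-Tq had few UMIs in the UL libraries: mature oligodendrocytes had 135, 16 and 6 mt-Ta UMIs, and microglia 106, 11 and 0 mt-Tq UMIs. The UMI totals of these classes were also smaller in the UL libraries. Relative to these totals, the log2 ratio of mt-Ta to control was -1.29 in ULI and -1.93 in ULC. That of mt-Tq in ULI was -1.96. mt-Nd3, a complex I subunit with 98.0% of its words shared, fell below its control share in both UL libraries in every class: in mature oligodendrocytes it took 0.218%, 0.117% and 0.0789% of mt- UMIs in the control, ULI and ULC libraries. Its log2 ratio to control in ULC lay between -2.01 and -0.85 in the 5 classes in which it was measured. The sharing of mt-Nd3 words with Gm28438 makes this count uncertain.

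Neighbouring pathways were read from lists. Enzymes of the TCA cycle, which feeds NADH and succinate to the chain, had a higher share in 5 of 8 classes in ULI and in 4 in ULC, and a lower one in none (median log2 ratios 0.17 and 0.11). The 17 genes gave 70 measured gene and class pairs over 5 classes in ULI, with 14 (20%) higher and 2 (2.86%) lower, and 55 pairs in ULC, with 14 (25.5%) higher and 2 (3.64%) lower. Over all genes, 14.0% of pairs were higher and 17.4% lower in ULI, and 18.5% and 18.8% in ULC. Glycolysis was lower in 5 classes in ULI and higher in 3 in ULC. The respiratory assembly factors outside the rule were lower in 3 classes in ULI and in 7 in ULC (median -0.28). Regulators of mitochondrial biogenesis were higher in 3 and 5 classes and lower in none. Genes for expression of mitochondrial DNA were higher in 2 and lower in 1 class in ULI, and higher in 1 and lower in 2 in ULC. Cytochrome c, carriers and outer membrane proteins were lower in 4 classes in ULI and in 3 in ULC, where they were also higher in 4. Oxidant defence was lower in 4 classes on either side and higher in 1 in ULI. Hypoxia response genes were higher in 7 classes in ULC and lower in none, against 2 higher and 3 lower in ULI.

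Lists that stand for other signals moved too. Ribosomal protein genes, which like many respiratory genes have short abundant transcripts, were lower in 7 classes in ULI and higher in 8 in ULC, whereas the nuclear respiratory set was lower in 7 in both. Dissociation stress genes were higher in 6 classes in ULI and in 7 in ULC, choroid plexus transcripts in 6 on either side (lower in the other 2), and haemoglobin genes in 2 and 5. Nuclear RNA was higher in 3 and lower in 3 classes in ULI, and higher in 2 and lower in 4 in ULC. Their part in the respiratory values was not tested.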

How the data were processed

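Single-cell RNA was measured in 3 pooled libraries. The authors deposited 1 table of UMI counts per gene and cell, as whole numbers with no normalization. The submitters' processing notes name CASAVA 1.8, UMI-tools, Seurat and mm10; the sources name different capture kits, and the aligner, annotation and cell calling were not given in the sources used here. Columns were grouped by their prefix. Cells with fewer than 200 detected genes were left out. Scanpy 1.11.5 (Python 3.11.15) clustered the rest on 2000 variable genes without the members, with 30 components, 20 neighbours and Leiden resolution 1 (leidenalg 0.10.2). Clusters were named from markers. A class was named with at least 3 markers detected, and doublets were kept except in 1 alternative. The doublet caller marked 44, 4 and 1 cells of the control, ULI and ULC libraries; as it failed in ULI and ULC, that alternative left out the top 5% of scores there. Shares, CPM and ratios were computed from the sums of UMIs over the cells of a class in 1 library, with exact intervals (scipy 1.17.1). Calls used a fold of 1.5 and a minimum of 100 UMIs summed over the 2 libraries. TMM factors (edgeR 4.0.16) and median-of-ratios factors (DESeq2 1.42.0, R 4.3.3) served as alternatives only. The ratio calculation was tested on simulated data.

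Members, gene lists and markers were chosen with earlier results of these data known. The genes named are the mt- mRNAs, the member with most UMIs of each complex, the 12 with the largest ratio of highest to median class, the 3 highest and 3 lowest ratios per class and comparison, and the minor isoforms. Others (Ndufs3, Cox7b2, Cox7c, Gm genes, Sdhd and similar) were named after their values were seen. UMIs per kilobase used annotated gene length.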

Additional observations from a re-analysis of the deposited data

How the results depend on the processing

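No paired analysis was possible because the groups share only 1 replicate number, with 1 library each, although ULI and ULC hold the 2 sides of 1 pool of mice. A ratio was called where the intervals of its 2 shares did not overlap. Of 696 ratios of shares recomputed under 15 alternatives, 632 stayed called in the same direction or stayed uncalled. Another 29 lost their call, 11 gained one and 24 called ratios turned. Changes of sign among ratios not called as reported were not followed. Classes were counted where the intervals of the shares did not overlap. Those with a higher nuclear share in ULC fell from 1 to 0 at Leiden resolution 0.5 and 2, with TMM and median-of-ratios factors, with at most 20% mt- UMIs, in cells of 1000 to 4000 UMIs, when thinned, with either other denominator, with members kept among the variable genes and without clusters 1 and 17. The last, the depth window, the limit of 10% on shared sequence and the isoform shares without ULC were chosen after seeing the data. For mature oligodendrocytes the nuclear ratio in ULC became -0.0261 (20% limit), -0.0265 (resolution 0.5), -0.0263 (members kept), -0.0065 (resolution 2), -0.0187 and -0.0184 (both denominators), -0.14 (TMM), -0.10 (median-of-ratios) and -0.16 (depth window), and that of ULI to ULC 0.0138 (TMM). Classes with a higher mt- share in ULC fell from 2 to 1 with the 20% limit and without doublets, and classes with a higher nuclear share in ULI than in ULC from 6 to 3 when thinned or with under 10% shared sequence. The astrocyte mt- ratio became -0.0816 in ULI and -0.0456 in ULC with the 20% limit. The ULI to ULC mt- ratio of perivascular macrophages became 0.0616 (at least 500 genes), 0.0568 (20% limit) and 0.0158 (no doublets). Means over cells and thinning gave ependymal nuclear ratios in ULC of 0.067 and 0.0851, mt- ratios of 0.13 and 0.13 in ULI and 0.11 and 0.12 in ULC, and endothelial ULI to ULC nuclear ratios of -0.0315 and -0.0735. The mature oligodendrocyte mt- ratio in ULI was 0.22 in the depth window. Over 5 classes, 21 of 289 nuclear gene and class pairs were called higher and 87 lower in ULI (14.0% and 17.4% over all genes), and 33 and 110 of 283 in ULC (18.5% and 18.8%); at 2-fold 3 and 51, and 20 and 47; with no count minimum 39 and 177, and 81 and 172; at 20 UMIs, 143 lower in ULI and 66 higher in ULC. The cause was not tested. The shares over all genes at 2-fold, at 20 UMIs and with no count minimum were not counted. The counts at these settings are thus not read against a background. Ependymal cells fell under 50 cells in a library, and gave no value, under the 500-gene, 20%, doublet and depth alternatives. Depth limits the rest: the ULC library has a median of 931 UMIs per cell.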

Other observations

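The 912 barcodes with fewer than 200 genes, left out of every class, had mt- shares of 40.0% in the control library, 39.2% in ULI and 38.1% in ULC, against 8.21%, 7.87% and 9.20% in the cells kept. Their nuclear respiratory shares were 0.892%, 0.927% and 0.783%, against 1.01%, 1.2% and 1.48%. These barcodes thus held more mt- UMIs per nuclear respiratory UMI than the cells kept in each library.

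In mature oligodendrocytes the mt- share did not move evenly with depth. Control cells of 500 to 1000 UMIs had 9.85% mt- UMIs, those of 4000 to 8000 UMIs 25.2%, and the 617 cells above 8000 UMIs 8.18%. The nuclear share ran the other way, 0.997%, 0.475% and 0.984%. ULI cells of 2000 to 4000 UMIs had 21.3%, against 6.68% in the 220 cells above 8000 UMIs. The class held clusters that differed in both depth and mt- share. In control, cluster 1 (622 cells, median 1027 UMIs) had 18.9% mt- UMIs and cluster 3 (685 cells, median 19280 UMIs) 8.43%. No marker of the class was among the 10 leading genes of cluster 1. Depth and cluster were not separated here.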
